A study of Mus musculus with 12 samples.

Results

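The heart muscle genes of fatty acid uptake and oxidation were followed on 12 microarrays of adult mouse heart: 40 genes, listed by name and found through the transcript accession of each probe, out of 29795 genes or unnamed features that could be tested. All 40 were present, on 53 probes, and all were well above background on every array. They comprise 4 genes of uptake, 5 of activation and the carnitine shuttle, 13 enzymes of mitochondrial beta-oxidation, 3 of electron transfer, 4 transcriptional regulators, 7 that respond to fasting or set acyl-CoA and malonyl-CoA levels, and 4 of the triglyceride store. Total RNA came from the heart apex of male C57BL/6J mice at 15 weeks of age, and the series compared lines with an altered allele of Nkx2-5, a homeobox transcription factor of heart muscle. Every genotype paired the altered allele with a + allele. The groups were Nkx2-5 control/+, whose knock-in left the isoleucine at position 183 as it was, I183M/+ and I183P/+, in which that isoleucine was exchanged for methionine or proline, and delta/+, in which the gene is deleted. Each group holds 3 arrays. Whether they stand for different animals is not given, so p-values measure only how far these samples spread, which may be technical.

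The adult heart draws most of its fuel from fatty acids. Lipoprotein lipase (Lpl) releases them from circulating triglyceride, CD36 and the transport protein Slc27a1 bring them into the cell, and Fabp3 carries them through the cytosol. Acyl-CoA synthetase activates them, the carnitine palmitoyltransferases and the carnitine-acylcarnitine carrier move them into mitochondria, and the beta-oxidation enzymes shorten them to acetyl-CoA. The nuclear receptors PPAR alpha and ERR alpha with their coactivators PGC-1 alpha and PGC-1 beta switch these genes on. Pdk4, Angptl4, Ucp3 and Acot1 are classic PPAR target genes that rise in fasting.

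Because the altered gene encodes a DNA-binding protein, the promoters of the 40 genes were read where a window was available, from 250 bases before to 50 bases after the start site (RefSeq, assembly GRCm38.p6). A window was found for 32 of the 40 genes. The letters TNAAGTG, the core that Nkx2-5 binds, were searched on both strands and lay in the windows of 2 of the 32 genes, Ucp3 and Cd36, which is 6.25% of them, against 13.1% of 27025 genes with a window. The PPAR/RXR repeat, 2 copies of AGGTCA spaced by 1 base, was in the window of 0 of the 32 genes and of 0.0481% of all genes. The ERR site TCAAGGTCA, which contains AGGTCA, was likewise in 0 of the 32 and in 0.466% of all genes. These counts say only whether the letters occur in the windows. Hadha and Hadhb, the subunits of the trifunctional protein, face away from each other on chromosome 5 and share 228 bases of their windows. The windows of Ucp3 and Cd36 are shown for the Nkx2-5 letters, in capitals, and that of Pdk4, with no match, because this gene was among those that varied most. Ucp3 lies at chr7:100472741-100473040 on the + strand, with its match beginning at -87 from the start site. Cd36 lies at chr5:17835847-17836146 on the - strand, with its match at -235 and on the opposite strand. Pdk4 lies at chr6:5496229-5496528 on the - strand.
Ucp3: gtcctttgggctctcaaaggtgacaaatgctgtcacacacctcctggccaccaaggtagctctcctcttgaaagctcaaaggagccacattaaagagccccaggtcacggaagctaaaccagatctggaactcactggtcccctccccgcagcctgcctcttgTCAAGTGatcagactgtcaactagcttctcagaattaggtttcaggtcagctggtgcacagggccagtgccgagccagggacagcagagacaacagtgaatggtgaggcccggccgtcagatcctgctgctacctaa
Cd36: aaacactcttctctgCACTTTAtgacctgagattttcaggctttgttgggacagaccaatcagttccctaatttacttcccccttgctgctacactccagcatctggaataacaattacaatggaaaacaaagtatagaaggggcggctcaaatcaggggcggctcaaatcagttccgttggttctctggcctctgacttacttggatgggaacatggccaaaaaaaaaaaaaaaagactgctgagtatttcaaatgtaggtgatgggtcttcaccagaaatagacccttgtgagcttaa
Pdk4: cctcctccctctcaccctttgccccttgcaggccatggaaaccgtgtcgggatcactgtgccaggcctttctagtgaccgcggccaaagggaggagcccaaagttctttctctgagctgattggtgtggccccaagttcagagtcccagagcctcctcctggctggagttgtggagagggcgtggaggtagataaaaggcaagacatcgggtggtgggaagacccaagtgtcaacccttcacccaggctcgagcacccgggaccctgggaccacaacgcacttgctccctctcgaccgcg

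Levels are log2 processed intensity relative to the 75th percentile of the same array, and levels of different genes are not set against each other. A difference of 1 is thus a 2-fold change. One array, control replicate 1, was unlike the remaining 11: 99.1% of its spots were well above background against 51.2% to 75.2% elsewhere, and the intensity at its 75th percentile was 1450 against 506.5 to 656.9. Differences from control are therefore given with and without it. Nkx2-5, the altered gene, read 3.77, 3.79 and 3.93 in delta, against 4.45 and 4.56 on control replicates 2 and 3 and 4.51 to 4.73 in the I183M and I183P groups. On control replicate 1 it read 3.11. Delta minus control was -0.21 with all arrays (adjusted p = 0.867, limma), -0.68 without control replicate 1 (adjusted p = 0.0623) and -0.72 after normexp and quantile normalization (adjusted p = 0.0349). Whether the probe lies inside the deleted part was not examined. All 14 markers of ventricular muscle were well above background on every array. In whole tissue, fewer cells of a type and less RNA per cell cannot be told apart.

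No gene of fatty acid uptake or oxidation passed the test in any of the 6 comparisons between groups (limma over all 12 arrays, Benjamini-Hochberg adjusted p under 0.05 over all features). Of all features tested, 0% were called between I183M and control, 0.00336% between I183P and control and 0.0738% between delta and control. Between the mutant groups, 0% were called in each of the 3 comparisons. Without control replicate 1, again 0 of the 40 genes were called, where all features gave 0%, 0.0168% and 0.175% for I183M, I183P and delta against control. The shares between I183P and I183M, delta and I183M, and delta and I183P were then 0%, 0.0436% and 0.0235%. Each gene kept the probe that was brightest over all 12 arrays, control replicate 1 included. A second Ucp3 probe, described below, was called for delta against I183P when each probe was tested on its own without that array. After normexp background correction and quantile normalization 0 of the 40 were called as well. Features called there made up 0.00671%, 0.0101% and 0.0906% of all against control, and 0%, 0.0168% and 0.0168% in the comparisons of I183P with I183M, delta with I183M and delta with I183P.

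An unadjusted p under 0.05 was also rare among the 40 genes. With all arrays it was reached by 0 of them for I183M against control (1.48% of all features), 1 for I183P against control, Angptl4 (5.19%), and 0 for delta against control (7.43%). Between mutant groups the counts were 1 for I183P against I183M, again Angptl4 (1.27%), 0 for delta against I183M (3.51%) and 2 for delta against I183P, Angptl4 and Ucp3 (2.79%). Without control replicate 1 the counts against control were 0, 2 and 3 for I183M, I183P and delta, beside 6.14%, 8.23% and 15% of all features. Between mutants they were 2, 3 and 5 for I183P against I183M, delta against I183M and delta against I183P, beside 9.56%, 11.5% and 12.3%. These counts lie near or below what the background shares would give for 40 genes.

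Gene levels that separated 2 groups completely were about as frequent as in the background, or less so. Between I183M and control the arrays of 2 of the 40 genes did not overlap (3.95% of all features), against 5 each for I183P and delta (12.7% and 13.8%). In the order I183P against I183M, delta against I183M and delta against I183P, the counts were 7, 4 and 5, beside 24.5%, 17.5% and 19.7%. In I183P against control the 5 were Cpt1a, Acadl, Ppargc1b, Esrra and Angptl4, all higher, and in delta against I183P they were Acadvl, which was higher, and Cpt1a, Angptl4, Pdk4 and Ucp3, which were lower. In delta against control Acadm, Hadh, Acaa2 and Etfa were higher and Lipe lower.

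The difference from control over the whole set turned on control replicate 1. With all arrays, 39, 37 and 34 of the 40 genes lay above control in I183M, I183P and delta, with medians of 0.50, 0.50 and 0.47, where the medians of all features were 0.11, -0.03 and 0.05. Without that array 23, 22 and 21 of the 40 lay above control, with medians of 0.01, 0.02 and 0.00 against 0.09, 0.01 and 0.16 of all features. On control replicate 1 itself, 36 of the 40 genes had their lowest value of the 12 arrays, as had 41.2% of all features, and the median of the 40, taken relative to each gene's mean on the other 11 arrays, was -1.45. On each of the other 11 arrays that median lay between -0.20, on I183P replicate 3, and 0.09. After quantile normalization the medians against control were 0.04, 0.09 and -0.01.

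**Figure D1:**
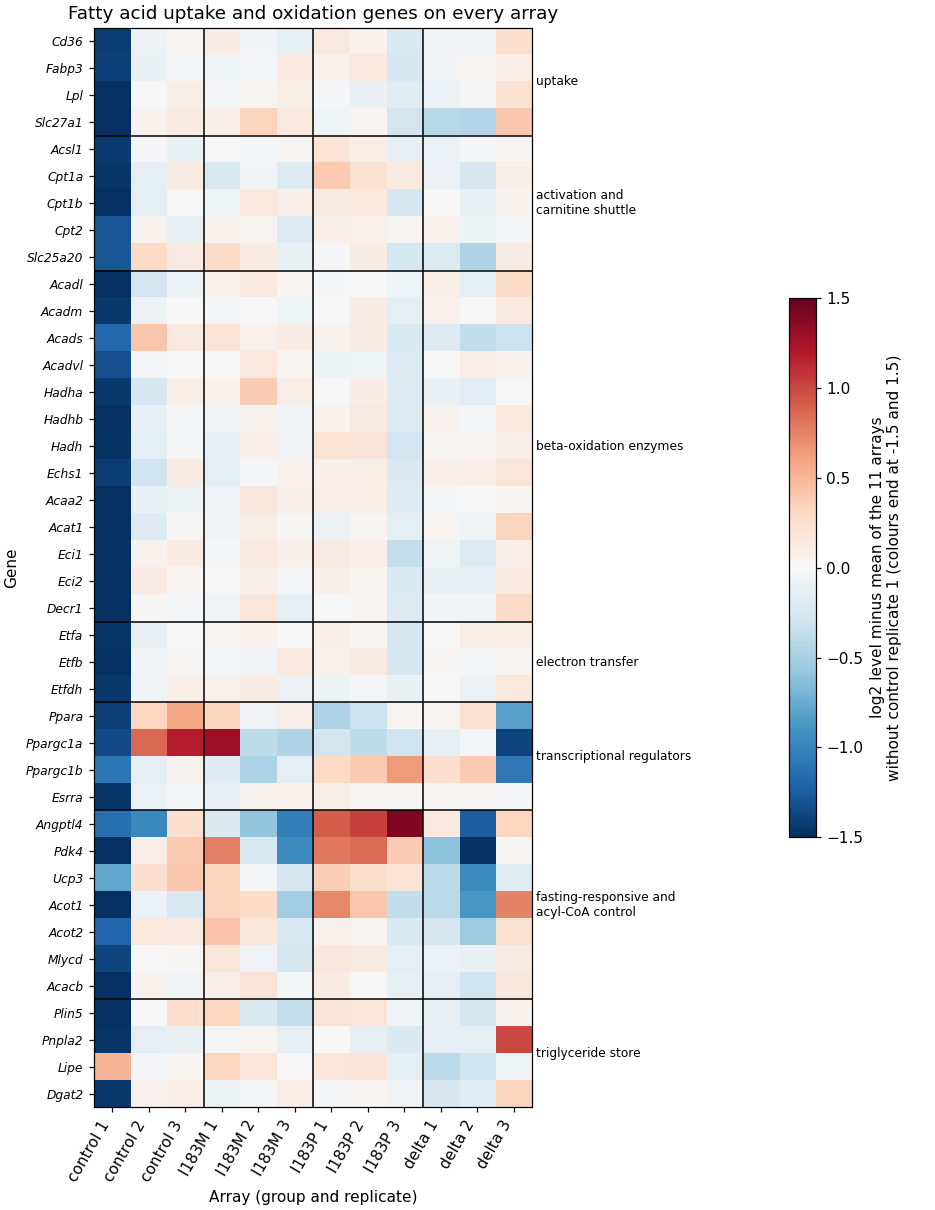
Log2 level of the 40 genes (rows, grouped by role) on the 12 arrays (columns), as the difference from each gene's mean over the 11 arrays without control replicate 1. The first column is blue for nearly every gene, most rows are pale elsewhere, and strong colours on the other arrays lie among the regulators and the fasting-responsive genes.

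Outside control replicate 1, the 40 genes differed in how widely their levels ranged, and roles were mixed in this. The SD over the 11 arrays had a median of 0.15 over the 40 genes, against 0.32 over all features, a comparison not matched for brightness. It was smallest for Esrra (0.064), the gene of ERR alpha, for Acadm (0.084), the medium-chain acyl-CoA dehydrogenase, and for Cpt2 (0.088). It was largest for Angptl4 (0.89), Ppargc1a (0.80), Pdk4 (0.76) and Acot1 (0.53). By role the median SD was 0.13 for uptake, 0.13 for the carnitine shuttle, 0.14 for beta-oxidation and 0.10 for electron transfer, but 0.44 for the regulators and 0.42 for the fasting-responsive group. Narrow genes lay in the last pair of roles too, with Esrra among the regulators and Mlycd (0.14) and Acacb (0.15) beside Angptl4 and Pdk4. The difference between roles was not tested.

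The uptake genes differed little between the groups. Cd36, the fatty acid translocase, read 4.38, 5.72 and 5.83 in control, 5.91, 5.76 and 5.66 in I183M, 5.94, 5.85 and 5.57 in I183P and 5.74, 5.75 and 6.04 in delta. Apart from control replicate 1 all 11 values lay between 5.57 and 6.04 and the groups overlapped. The mean differences from control were 0.47, 0.48 and 0.54 for I183M, I183P and delta with all arrays, and 0.00, 0.01 and 0.07 without that array. In the latter fit the interval for delta, -0.28 to 0.42, leaves out a 2-fold change in either direction. Fabp3, the cytosolic fatty acid carrier of heart, stayed within 8.97 to 9.37 on the 11 arrays. Lpl ranged from 8.42 to 8.84 on them, and its 3 I183P values of 8.58, 8.52 and 8.42 lay below all 3 of I183M, at 8.60, 8.66 and 8.70. On a dimmer second Lpl probe these groups overlapped, with I183P replicate 1 at 6.80 and I183M replicate 2 at 6.78. Slc27a1, which couples uptake to acyl-CoA formation, was the widest of the 4, with 2.57, 2.54 and 3.38 in delta. Delta replicates 1 and 2 were the lowest of the 11 arrays and replicate 3 the highest.

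In the carnitine shuttle, Cpt1b is the muscle form of the gate enzyme at the outer mitochondrial membrane and Cpt1a the form of liver and fetal heart. Cpt1b read 4.17, 5.60 and 5.75 in control, 5.68, 5.90 and 5.84 in I183M, 5.87, 5.90 and 5.49 in I183P and 5.73, 5.63 and 5.79 in delta, and its groups overlapped apart from control replicate 1. On a dimmer second Cpt1b probe every delta array, at 4.38, 4.38 and 4.45, lay above every control array, at 2.76, 3.94 and 4.15. That probe was not called when each probe was tested on its own. Cpt1a read 0.81, 2.12 and 2.40 in control, 2.04, 2.23 and 2.07 in I183M, 2.66, 2.50 and 2.41 in I183P and 2.18, 2.02 and 2.34 in delta. The 3 I183P arrays were the highest of the 12, the lowest of them only just above control replicate 3. The difference from control was 0.75 (SE 0.36, adjusted p = 0.564) with all arrays and 0.26 (SE 0.14, adjusted p = 0.733) without control replicate 1. From I183M it was 0.41 (SE 0.36, adjusted p = 1.00), and delta differed from I183P by -0.35 (SE 0.36, adjusted p = 1.00). A dimmer second probe of Cpt1a did not set I183P apart, with -0.50, -0.57 and -0.62 there and -0.52, -0.49 and -0.80 in I183M.

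The remaining steps into the mitochondrion showed small differences. Acsl1, the main long-chain acyl-CoA synthetase of heart, stayed between 7.41 and 7.73 on the 11 arrays. The dimmer second Acsl1 probe varied more, from 3.75 to 4.43 on these arrays. It read 2.75, 4.43 and 4.23 in control and 3.89, 3.75 and 4.19 in delta. Cpt2, which reforms acyl-CoA inside the mitochondrion, stayed between 6.27 and 6.54 on the same 11 arrays. Its second, dimmer probe read differently, at 0.34, 2.09 and 1.55 in control and 0.98, 0.62 and 1.41 in delta, so the 2 probes of Cpt2 disagree. Slc25a20, the carrier that exchanges acylcarnitine for carnitine, read 1.84, 3.42 and 3.26 in control and 2.92, 2.68 and 3.24 in delta. In delta its difference from control was 0.11 (SE 0.38, adjusted p = 0.935) with all arrays and -0.39 (SE 0.20, adjusted p = 0.402) without control replicate 1, so its sign rests on that array.

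The 13 beta-oxidation enzymes were low on control replicate 1 and differed little otherwise. Relative to the mean of the other 11 arrays their median was -1.49 there, and on the other arrays it lay between -0.21, on I183P replicate 3, and 0.14, on delta replicate 3. Set against control replicates 2 and 3, 10 of the 13 lay above control in delta, from -0.58 (Acads) to 0.26 (Acadl). In I183M 10 of 13 and in I183P 8 of 13 lay above control. With all arrays 13, 13 and 12 of the 13 lay above control in I183M, I183P and delta.

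Acads, the short-chain acyl-CoA dehydrogenase, stood out in delta by its order rather than by the test. It read 1.74, 3.34 and 3.08 in control, 3.13, 3.00 and 3.04 in I183M, 2.98, 3.03 and 2.69 in I183P and 2.73, 2.56 and 2.60 in delta. The delta values lay below all 3 of I183M and below both other control arrays, and 1 of them lay above I183P replicate 3. Delta minus control was -0.09 (SE 0.36, adjusted p = 0.940) with all arrays and -0.58 (SE 0.14, adjusted p = 0.128) without control replicate 1, with a 95% interval of -0.89 to -0.26. Delta minus I183M was -0.42 (SE 0.12, adjusted p = 0.250) in the same fit. All delta arrays and I183P replicate 3 lay on slide 2 and all other arrays on slide 1, so slide and genotype meet only within I183P. With all arrays, control replicate 1 included, delta minus control went from -0.09 to 0.22 (SE 0.68) when slide was a block. Slide as a block without control replicate 1 was not fitted, so this value is not to be set against -0.58. Within slide 2 delta minus I183P was -0.06 (SE 0.18), with 1 I183P array.

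Acadl, the long-chain acyl-CoA dehydrogenase, was among the 5 genes of lowest p in all 3 comparisons with control. It read 4.87, 6.12 and 6.32 in control, 6.46, 6.55 and 6.43 in I183M, 6.39, 6.39 and 6.34 in I183P and 6.49, 6.27 and 6.68 in delta. Every I183M and I183P array lay above all control arrays, as did 2 of the 3 delta arrays. The differences were 0.71 (SE 0.34) for I183M, 0.61 (SE 0.34) for I183P and 0.71 (SE 0.34) for delta, with adjusted p-values of 0.877, 0.564 and 0.695. They were smaller without control replicate 1, at 0.26, 0.15 and 0.26.

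The subunits of the trifunctional protein, Hadha and Hadhb, catalyse the later steps of long-chain oxidation. Hadha read 3.87, 5.06 and 5.41 in control and 5.38, 5.70 and 5.41 in I183M, a difference of 0.71 (SE 0.35, adjusted p = 0.877) with all arrays and 0.26 without control replicate 1. In delta it read 5.22, 5.15 and 5.33, below all I183M values. Delta minus I183M was -0.26, with an SE of 0.35 with all arrays and 0.14 in the fit without control replicate 1. Hadhb, which shares its promoter region with Hadha, read 8.78, 8.87 and 8.76 in I183M and 8.87, 8.79 and 8.98 in delta, and these groups overlapped. Among the other enzymes, Acaa2 and Acat1, thiolases of the last step and of ketone body use, were among the lowest p-values for I183M against control, at 0.66 (SE 0.36) and 0.64 (SE 0.39). Leaving out control replicate 1 brought these to 0.16 and 0.11. Echs1, the enoyl-CoA hydratase, read 6.59, 6.61 and 6.69 in delta, above all I183M values of 6.37, 6.48 and 6.58.

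Acadvl, the very-long-chain dehydrogenase, was lowest in I183P apart from control replicate 1, at 8.42, 8.42 and 8.28. These 3 values lay below all I183M values of 8.49, 8.65 and 8.52 and all delta values of 8.49, 8.59 and 8.55. The difference from I183M was -0.18, with an SE of 0.09 in the fit without control replicate 1. Acadm, which handles medium chains, read 8.25, 8.18 and 8.32 in delta, above control at 6.74, 8.11 and 8.17 by 0.58 with all arrays and 0.11 without control replicate 1. Hadh, the short-chain hydroxyacyl-CoA dehydrogenase, ranged from 6.33 to 6.82 on the 11 arrays, with I183P replicate 3 at the bottom and I183P replicate 1 at the top. The isomerases Eci1 and Eci2 and the reductase Decr1, which prepare unsaturated chains for oxidation, ranged over 0.50, 0.37 and 0.49 log2 units on these arrays, and all 3 were lowest among them on I183P replicate 3.

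The electron transfer genes, Etfa, Etfb and Etfdh, carry electrons from the acyl-CoA dehydrogenases to the respiratory chain. They were the steadiest of the roles, with ranges on the 11 arrays of 0.35, 0.40 and 0.27. Etfa read 6.47, 7.83 and 7.94 in control and 7.94, 8.04 and 8.02 in delta, where replicate 1 only just reached above the highest control array. For the 3 genes delta minus control was 0.59, 0.54 and 0.49 with all arrays, and 0.12, 0.02 and 0.00 without control replicate 1. A second probe of Etfa gave lower values in delta than on both other control arrays, at 4.57, 4.34 and 4.77 against 3.28, 4.95 and 4.82 in control.

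Among the regulators, Ppargc1a (PGC-1 alpha) was split across the arrays rather than by group. It read 3.26, 5.48 and 5.81 in control, 5.91, 4.24 and 4.17 in I183M, 4.34, 4.24 and 4.33 in I183P and 4.50, 4.60 and 3.24 in delta. The values of 5.48 and above were those of control replicates 2 and 3 and I183M replicate 1, and all I183P and delta arrays lay lower. Those arrays and control replicate 1 make up 1 row of 4 arrays on slide 1, and every other array lay in another row. Control lay in that row alone, so row and genotype cannot be told apart for it. The part of the row in this split was not tested. With all arrays the differences from control were -0.08 (SE 0.71), -0.55 (SE 0.71) and -0.74 (SE 0.71) for I183M, I183P and delta. Against control replicates 2 and 3 they were -0.87 (SE 0.57, adjusted p = 0.726), -1.34 (SE 0.57, adjusted p = 0.590) and -1.53 (SE 0.57, adjusted p = 0.262). A second probe of Ppargc1a gave the same order, with -0.17, 2.19 and 2.65 in control, 0.77, 0.46 and 0.73 in I183P and 0.97, 1.01 and -0.37 in delta. With slide as a block and all arrays, delta minus control was -0.77 (SE 1.35) on the brighter probe.

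On its brightest probe Ppara, the gene of PPAR alpha, was likewise highest on control replicates 2 and 3 and I183M replicate 1. These arrays share a row of the slide with control replicate 1. Ppara read 3.18, 4.92 and 5.18 in control, 4.93, 4.55 and 4.68 in I183M, 4.13, 4.29 and 4.64 in I183P and 4.63, 4.83 and 3.79 in delta. The difference of I183P from control was -0.70 (SE 0.30, adjusted p = 0.608) without control replicate 1 and -0.07 (SE 0.49) with all arrays, and that of delta -0.63 (SE 0.30) and -0.01 (SE 0.49). All 3 probes of Ppara placed delta replicate 3 lowest of the 11 arrays. The order at the top did not hold on the dimmer probes. There delta replicate 2, at 3.28 and 2.81, lay above control replicate 2, at 3.12 and 2.49, and I183M replicate 1, at 3.22 and 2.42. Ppargc1b (PGC-1 beta), by contrast, was highest in I183P, and read -0.09, 0.85 and 1.05 in control, 0.81, 0.52 and 0.86 in I183M, 1.30, 1.39 and 1.64 in I183P and 1.25, 1.38 and -0.07 in delta. Its I183P values lay above all control and I183M values and its first and second delta arrays lay close to them, while delta replicate 3 was close to control replicate 1. I183P minus I183M was 0.71 (SE 0.41, adjusted p = 1.00). Esrra, the gene of ERR alpha, read 6.37, 6.29 and 6.30 in I183P and 4.82, 6.18 and 6.25 in control, and its 11 values spanned only 0.21.

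**Figure D2:**
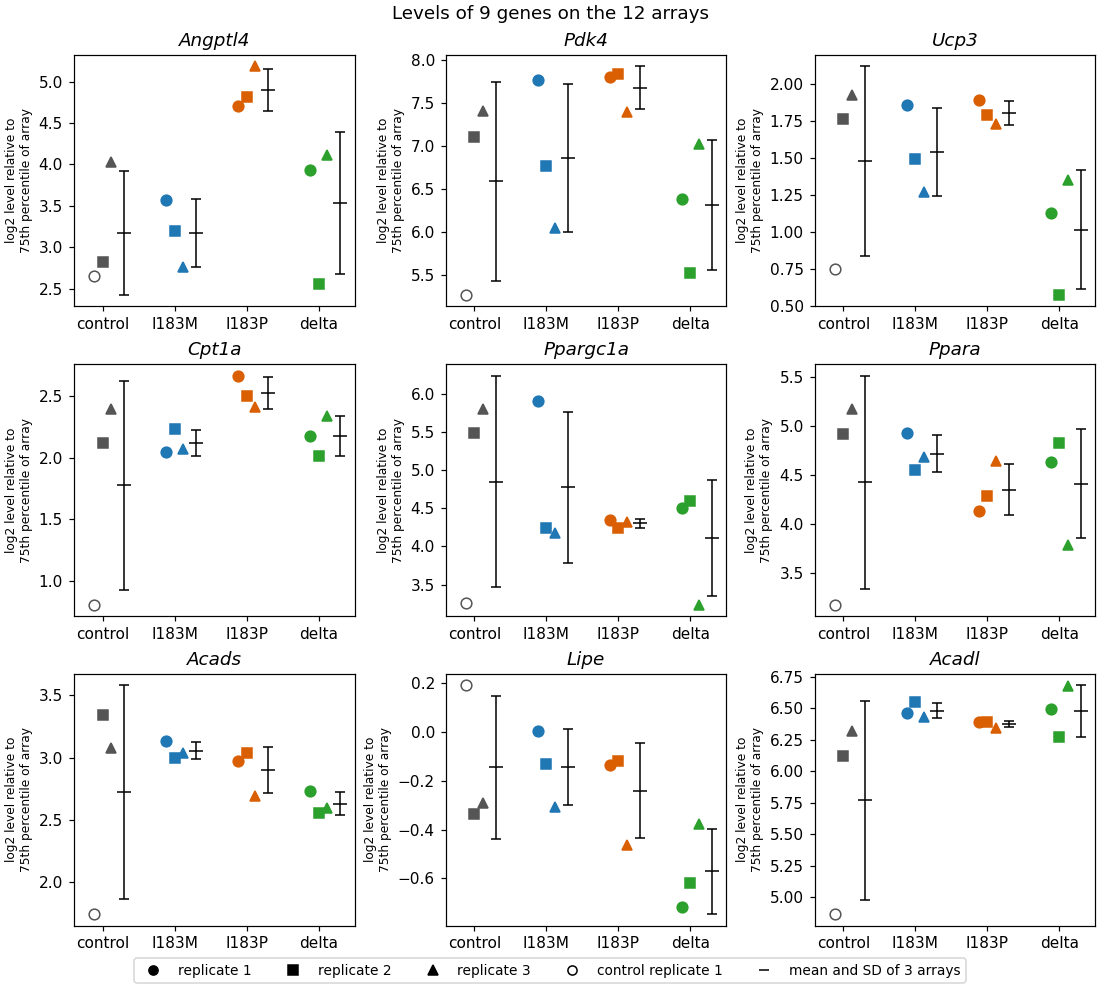
Log2 level relative to the 75th percentile of the array (vertical axis) of 9 genes in the 4 groups (horizontal axis). Each point is 1 array, the open point is control replicate 1, and bars give mean and SD of 3 arrays. Angptl4 in I183P lies at 4.70 to 5.19, above every other array, and Ucp3 in delta at 0.57 to 1.35.

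With all arrays, Angptl4 gave the largest difference between groups of any of the 40 genes. It encodes a secreted inhibitor of lipoprotein lipase and is made by muscle, fat and endothelial cells. It read 2.66, 2.83 and 4.03 in control, 3.57, 3.20 and 2.76 in I183M, 4.70, 4.82 and 5.19 in I183P and 3.93, 2.55 and 4.11 in delta. All 3 I183P values lay above the other 9. I183P minus control was 1.73 (SE 0.48), a ratio of 3.32, with a 95% interval of 0.65 to 2.81, an unadjusted p of 0.00519 and an adjusted p of 0.564. I183P minus I183M was 1.73 (SE 0.48, adjusted p = 1.00) and delta minus I183P -1.37 (SE 0.48, adjusted p = 1.00), or within slide 2 -1.65 (SE 0.81). Without control replicate 1, I183P minus control was 1.47 (SE 0.52, adjusted p = 0.492), and on slide 1 alone, with all 3 control arrays, it was 1.59 (SE 0.49). Control, I183M and delta overlapped, and delta minus control was 0.36 (SE 0.48). A fit that weighted the arrays by their quality called 4 of the 40 genes between I183P and I183M, Angptl4 at 1.91 (adjusted p = 0.00838), Cpt1a, Pdk4 and Plin5, where it called 6.38% of all features.

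Markers of other cell types were set beside Angptl4. The summed level of 12 endothelial markers, in log2, was 8.92, 8.77 and 8.52 in I183P, against 7.31, 8.56 and 8.52 in control, 8.49, 8.48 and 8.46 in I183M and 8.46, 8.38 and 8.45 in delta. Of these 12, 11 lay higher in I183P than in control with all arrays and 8 without control replicate 1, 11 lay lower in delta than in I183P, and none was called. The summed level of 10 adipocyte markers was 8.07, 7.86 and 7.32 in I183P, 6.36, 7.54 and 7.55 in control, 7.47, 7.54 and 7.42 in I183M and 7.34, 7.26 and 7.40 in delta. Fabp4, a fatty acid binding protein counted in both lists, read 7.98, 7.78 and 7.22 in I183P. It was the brightest gene of both lists and made up most of the adipocyte sum, so the sums are not separate readings. Counted gene by gene, 1 of the 10 adipocyte markers lay higher in I183P than in control with all arrays and 2 without control replicate 1, with medians of -0.73 and -0.28, and 2 of the 10 lay higher than in I183M, with a median of -1.45. The defining adipocyte markers Adipoq and Plin1 were dim and were above background on 10 of 12 arrays each. The part of these cells in the Angptl4 levels was not tested.

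Pdk4, the kinase that shuts off pyruvate dehydrogenase when fat is burnt, was the second most variable of the fasting-responsive genes. It read 5.27, 7.10 and 7.40 in control, 7.76, 6.77 and 6.05 in I183M, 7.80, 7.84 and 7.39 in I183P and 6.39, 5.52 and 7.02 in delta. The I183P values lay above all of delta, and control and I183M overlapped with both. I183P minus control was 1.08 (SE 0.63, adjusted p = 0.564) with all arrays and 0.42 (SE 0.53) without control replicate 1. Delta minus control was -0.28 (SE 0.63) and -0.94 (SE 0.53) in these fits, and delta minus I183P -1.36 (SE 0.63, adjusted p = 1.00), or within slide 2 -1.08 (SE 0.72). Acot1, a cytosolic acyl-CoA thioesterase, read 2.33, 4.08 and 3.93 in control, 4.50, 4.44 and 3.64 in I183M, 4.89, 4.56 and 3.79 in I183P and 3.76, 3.29 and 4.90 in delta. Its groups overlapped in every comparison, with delta spanning the lowest and the highest of the 11 arrays. Acot2, its mitochondrial relative, ranged from 1.34 to 2.30 on the 11 arrays without control replicate 1. Acot1 and Acot2 are nearly identical in sequence, so the probe of each may read both.

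Ucp3, a mitochondrial carrier of the inner membrane whose promoter window above holds the Nkx2-5 letters, was lowest in delta. Whether those letters bear on its level was not tested. Ucp3 was read on the probe with the higher mean over all 12 arrays. The values were 0.75, 1.77 and 1.93 in control, 1.86, 1.49 and 1.27 in I183M, 1.89, 1.80 and 1.73 in I183P and 1.13, 0.57 and 1.35 in delta. The 3 delta arrays lay below all of I183P and below control replicates 2 and 3, but replicate 3 of delta lay above replicate 3 of I183M. Delta minus I183P was -0.79 (SE 0.34, adjusted p = 1.00) with all arrays and -0.79 (SE 0.22, adjusted p = 0.306) with the spread of the 11 arrays, and within slide 2 it was -0.72 (SE 0.41). Delta minus control was -0.46 (SE 0.34, adjusted p = 0.708) and, without control replicate 1, -0.83 (SE 0.24, adjusted p = 0.174). With all arrays, control replicate 1 included, delta minus control went from -0.46 to -0.35 (SE 0.65) when slide was a block.

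The second Ucp3 probe, which matches the same transcript, separated the groups further. It read 0.25, 1.86 and 1.86 in control, 1.56, 1.61 and 1.23 in I183M, 2.51, 2.43 and 2.36 in I183P and 0.84, 0.31 and 0.54 in delta. The I183P values were the highest of the 12 arrays, and every delta array lay below every I183M array and below control replicates 2 and 3. Delta minus I183P was -1.87 on this probe, with an SE of 0.40 and an adjusted p of 0.907 (limma) over all probes with all arrays. The same difference without control replicate 1 had an SE of 0.16 and an adjusted p of 0.0420, and this was the only probe of the 40 genes called among 8 of 41591 probes (0.0192%). After normexp and quantile normalization it was -1.78 with an adjusted p of 0.297, and in the authors' deposited table -1.79 with an adjusted p of 0.292 (limma). Testing each probe on its own was chosen after the values were seen, and the call rests on leaving out control replicate 1. Without that array this second probe had the higher mean, so which probe stood for Ucp3 also depended on control replicate 1. The gene was not tested with this probe in its place.

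**Figure D3:**
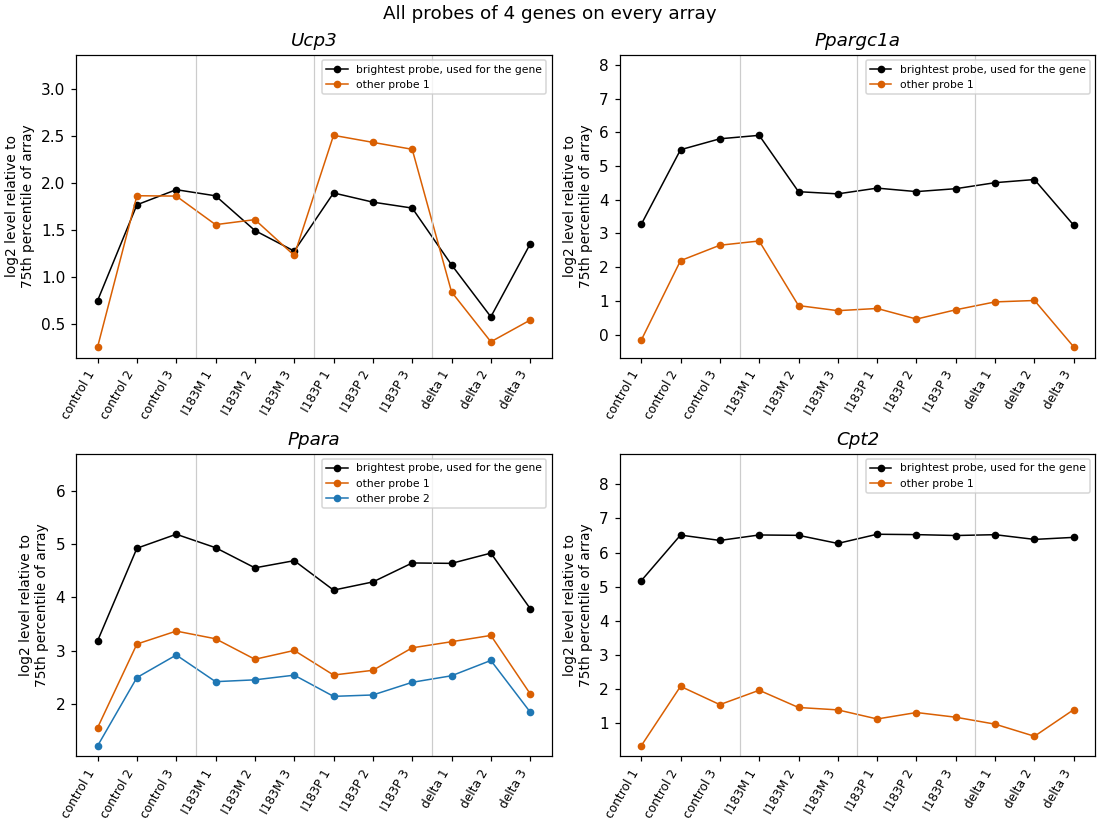
Log2 level relative to the 75th percentile (vertical axis) of every probe of Ucp3, Ppargc1a, Ppara and Cpt2 on the 12 arrays (horizontal axis), with 1 line for each probe. The probes of Ppargc1a run in parallel, and those of Ppara nearly so. The second probe of Ucp3 sits at 2.36 to 2.51 in I183P and 0.31 to 0.84 in delta, and the dimmer probe of Cpt2 varies where the brighter one is flat.

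The malonyl-CoA pair sets how much acyl-CoA enters mitochondria: Acacb makes malonyl-CoA, which blocks the carnitine gate, and Mlycd removes it. Acacb ranged from 5.06 to 5.55 on the 11 arrays and Mlycd from 5.96 to 6.38. Their differences from control with all arrays were 0.59, 0.50 and 0.42 for Acacb and 0.41, 0.51 and 0.43 for Mlycd, in I183M, I183P and delta. Leaving out control replicate 1 they were 0.09, 0.00 and -0.09 for Acacb and -0.05, 0.05 and -0.04 for Mlycd. All 7 genes of the fasting-responsive and acyl-CoA group lay lower in delta than in I183P, from -1.37 for Angptl4 to -0.08, with a median of -0.43, where the median of all features was 0.15. Within slide 2, against the single I183P array there, 3 of the 7 lay lower, Angptl4, Pdk4 and Ucp3, and 4 lay higher, Acot1, Acot2, Mlycd and Acacb, by 0.19, 0.04, 0.11 and 0.03.

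In the triglyceride store, Lipe, the hormone-sensitive lipase, was the only one of the 40 genes that was highest on control replicate 1. It read 0.19, -0.34 and -0.29 in control, 0.00, -0.13 and -0.31 in I183M, -0.14, -0.12 and -0.46 in I183P and -0.72, -0.62 and -0.38 in delta. The delta values lay below all control and all I183M values, and delta replicate 3 lay above I183P replicate 3. Delta minus control was -0.43 (SE 0.22, adjusted p = 0.695), or -0.26 (SE 0.16) without control replicate 1, and delta minus I183M was -0.43 (SE 0.22). With slide as a block and all arrays, delta minus control was -0.09 (SE 0.39). Pnpla2, the lipase that begins triglyceride breakdown, was set apart on 1 delta array. It read 6.68, 6.67 and 7.81 in delta, and its replicate 3 lay above the other 10 arrays, which held to 6.58 to 6.84. Delta minus control was 0.82 (SE 0.41) with all arrays and 0.37 (SE 0.31) without control replicate 1, and 0.44 without delta replicate 3. Plin5, which coats lipid droplets next to mitochondria, ranged from 6.65 to 7.34 on the 11 arrays without control replicate 1. Dgat2, which makes triglyceride, was also highest on delta replicate 3, at 8.09, and lay between 7.52 and 7.86 on the other arrays apart from control replicate 1.

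How small a difference the arrays could bound depended on control replicate 1 and on how the arrays were normalized. The SE of a difference from control had a median over the 40 genes of 0.37 with all arrays and 0.15 without that array. In the latter fit the 95% interval stayed within a 2-fold change in either direction for 34 of the 40 genes for I183M, 34 for I183P and 33 for delta against control. Between mutants the counts were 35 for I183P against I183M, 35 for delta against I183M and 33 for delta against I183P. Angptl4, Pdk4, Acot1 and Ppargc1a had wider intervals in all 6 comparisons. After normexp and quantile normalization, with control replicate 1 kept, the median SE against control was 0.12. There the interval stayed within a 2-fold change for 36, 34 and 33 of the 40 genes for I183M, I183P and delta against control.

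**Figure D4:**
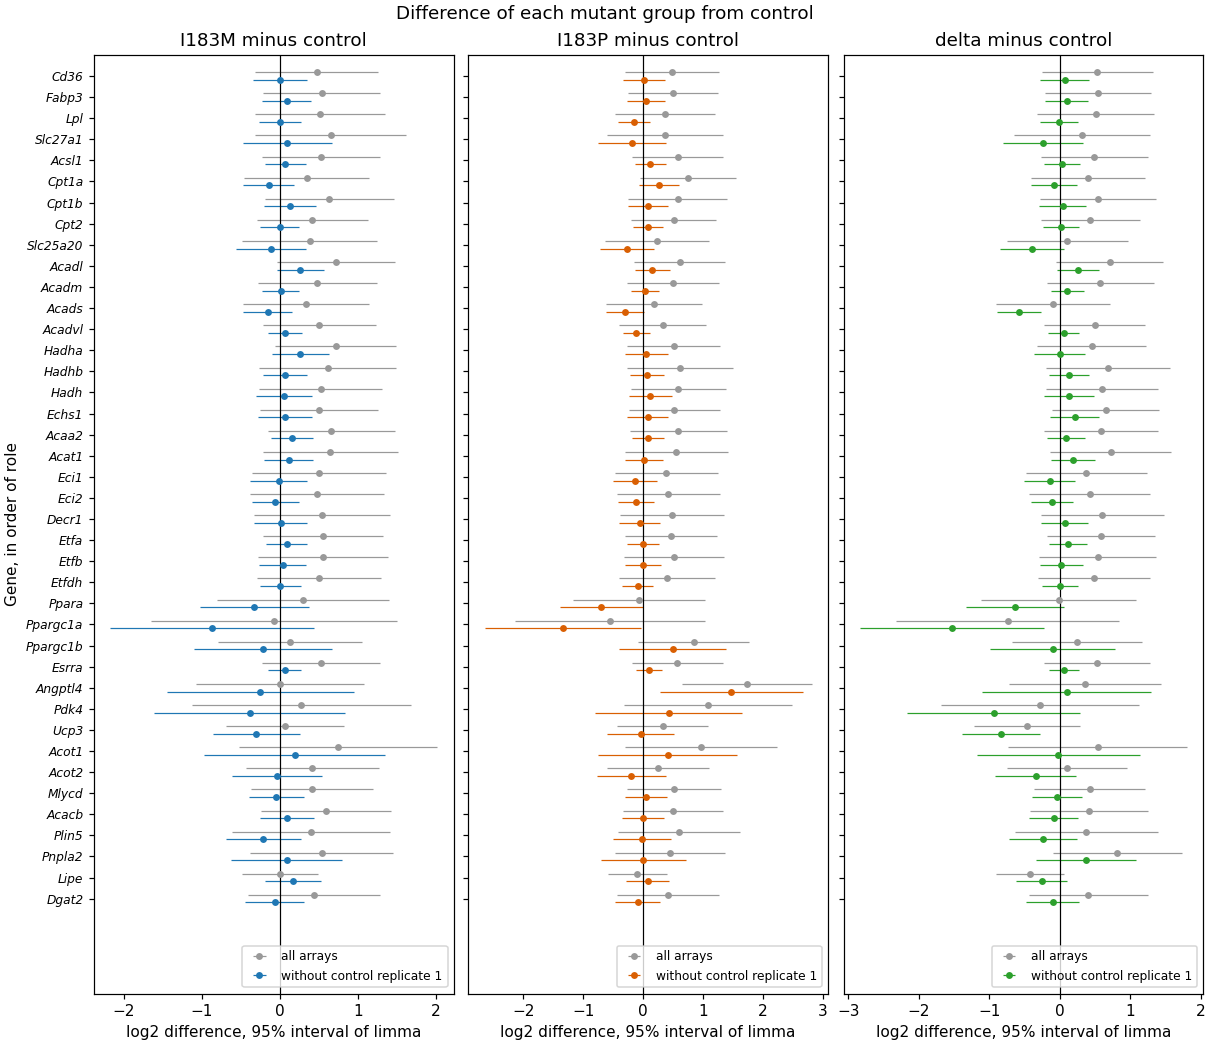
Difference of each mutant group from control (horizontal axis, log2, with the 95% interval of limma) for the 40 genes in order of role (vertical axis). Grey points use all arrays and coloured points leave out control replicate 1. Grey points sit near 0.5 for most genes and coloured points near 0, with Angptl4 in I183P and Ppargc1a, Pdk4, Ucp3, Ppara and Acads in delta among those farthest from it.

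Comparisons between mutant groups do not use control and their differences are the same with or without control replicate 1. The median over the 40 genes was -0.05 for I183P minus I183M, -0.01 for delta minus I183M and -0.02 for delta minus I183P, where all features had medians of -0.10, -0.02 and 0.15. The 5 lowest p-values for I183P minus I183M were those of Angptl4, Ppargc1b, Pdk4, Cpt1a and Ucp3. For delta minus I183P they were those of Angptl4, Ucp3, Pdk4, Lipe and Ppargc1b. These comparisons share the I183P arrays. For delta minus I183M they were those of Lipe, Ucp3, Acads, Ppargc1a and Pdk4, with Ppargc1a at -0.66 (SE 0.71) and Pdk4 at -0.55 (SE 0.63). Both rest on single arrays: without I183M replicate 1 they were -0.09 and -0.10, Ppargc1a was -0.22 without delta replicate 3, and Pdk4 was -0.16 without delta replicate 2 and -0.95 without I183M replicate 3. Ucp3 in delta minus I183M was -0.31 without delta replicate 2. In delta minus I183P, Angptl4 was -0.88 without delta replicate 2 and Ppargc1b -0.13 without delta replicate 3. In I183P minus I183M, Pdk4 was 1.26 without I183M replicate 1 and 0.41 without replicate 3, and Ucp3 0.42 and 0.13. The adjusted p was 1.00 for each of the 40 genes in all 3 comparisons (limma, all arrays), and the smallest without control replicate 1 were 0.521, 0.250 and 0.306.

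**Figure D5:**
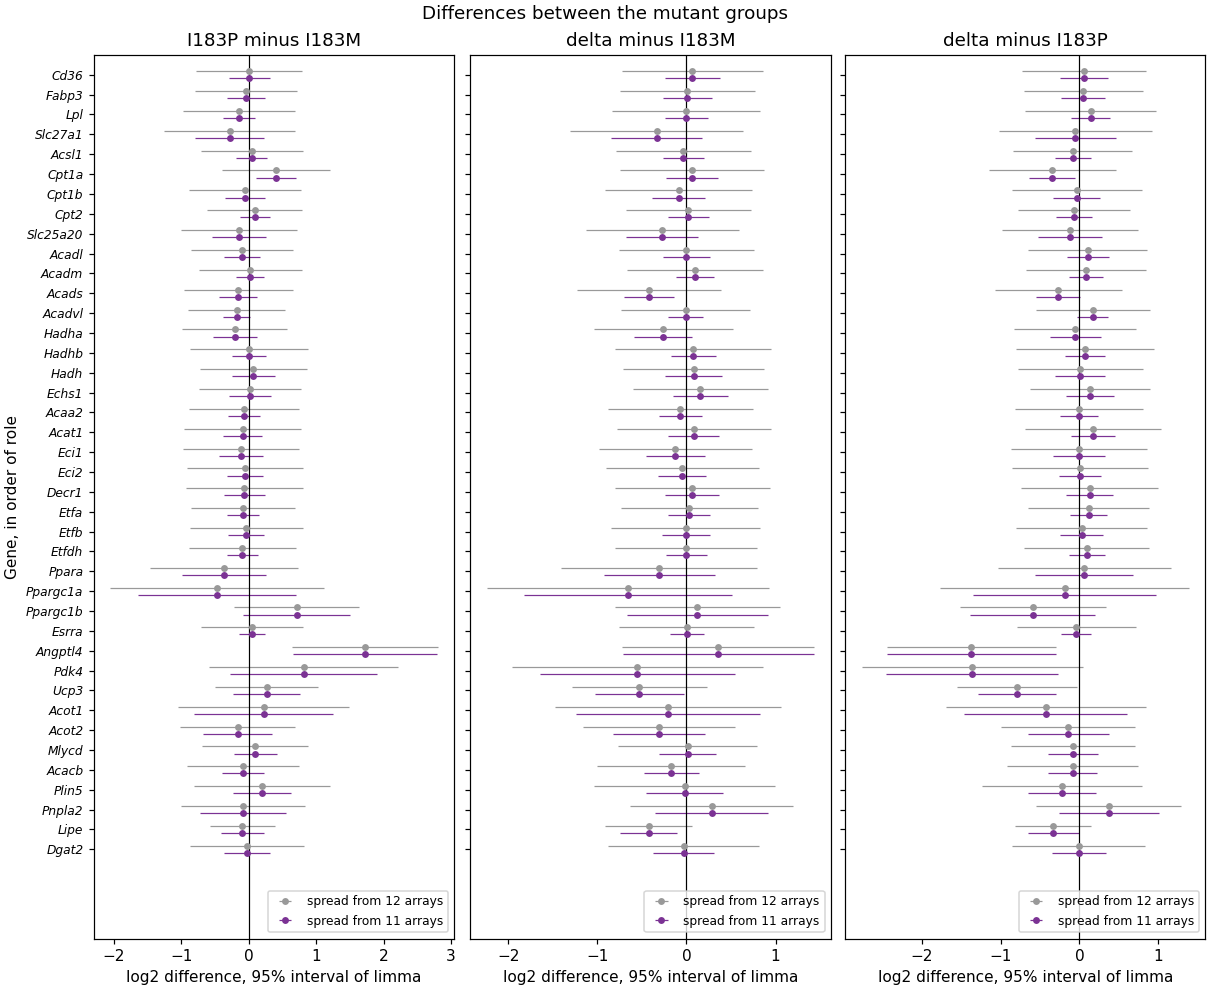
Differences between mutant groups (horizontal axis, log2, with the 95% interval of limma) for the 40 genes in order of role (vertical axis), with the spread estimated from 12 arrays (grey) or from 11 (purple). Most points lie near 0, Angptl4 lies at 1.73 for I183P minus I183M, and Angptl4, Pdk4 and Ucp3 lie at -1.37, -1.36 and -0.79 for delta minus I183P.

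The neighbouring pathways were read from 7 further lists, and none of their tested genes was called in any comparison. With all arrays most genes of each list lay above control, as the 40 genes did: 32, 32 and 31 of 33 genes of glucose use lay above control in I183M, I183P and delta, and 18 of 18 genes of the citrate cycle in each. Without control replicate 1 these counts were 17, 12 and 13 of 33 and 12, 5 and 11 of 18. For 18 peroxisomal oxidation genes they went from 16 each to 8, 8 and 4. For 23 nuclear receptors and cofactors they went from 22, 23 and 20 to 6, 7 and 7, and for 18 genes of triglyceride and lipid droplets from 17, 15 and 15 to 8, 6 and 5. For 23 other genes of carnitine supply and acyl-CoA metabolism they went from 19, 20 and 17 to 8, 9 and 12, and for 5 ketone body genes from 4, 3 and 5 to 3 each.

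Within these lists Ehhadh, the peroxisomal bifunctional enzyme and another PPAR target, was highest in I183P and had its lowest mean in delta. The second Ucp3 probe did so too, whereas on the Ucp3 probe used for the gene I183P overlapped with control and I183M. Ehhadh read -0.22, 1.09 and 0.90 in control, 1.12, 0.58 and 0.37 in I183M, 1.99, 1.62 and 1.40 in I183P and 0.19, -0.02 and 0.65 in delta, with every I183P array above all others and 2 of the 3 delta arrays below all but control replicate 1. Delta minus I183P was -1.40 (SE 0.25, adjusted p = 0.197) without control replicate 1. Pfkfb1, which makes the activator of glycolysis fructose 2,6-bisphosphate, lay lowest in control, at 0.79, 2.60 and 2.49. It read 3.24, 4.16 and 3.86 in I183M, 4.14, 4.16 and 3.84 in I183P and 3.41, 3.57 and 3.29 in delta. Every mutant array thus lay above all control arrays, and I183M and I183P overlapped. I183P minus control was 2.09 (SE 0.45, adjusted p = 0.541) with all arrays and 1.50 (SE 0.25, adjusted p = 0.150) without control replicate 1. Pdp2, the phosphatase that reverses the action of Pdk4, was highest in I183P, at 3.41, 3.20 and 3.10. It read 2.47, 2.78 and 2.95 in I183M and 2.62, 2.48 and 1.68 in delta.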

How the data were processed

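Deposited scanner files of 12 1-colour Agilent arrays were used, made with Agilent Feature Extraction 11.0.1.1 (protocol GE1_1100_Jul11, probe layout on mm9) per the file headers. The values used are the deposited processed intensity, already background-subtracted and detrended per the file headers. Normalized log2 values in the authors' deposited table, which the submitters' processing notes tie to limma, were an alternative, with medians of 6.89 to 6.94 per array. Log2 intensity minus the 75th percentile of the array was averaged over spots of a probe. Probes well above background on at least 3 arrays were kept (41591). Each gene was read on its brightest probe over all 12 arrays, also in the fit without control replicate 1. Genes were named by probe accession through RefSeq. All 4 groups of 3 arrays entered 1 limma 3.58.1 fit (R 4.3.3), with Benjamini-Hochberg adjustment over 29795 features in each of 6 comparisons. Scripts were tested on simulated data. Precision is limited by the number of arrays. The 40 genes, the other lists and the named-gene rule (the 5 lowest p-values per comparison) were chosen with earlier results of these data known. Deviations from the group mean were correlated between same-numbered control and I183M arrays (0.79, 0.56 and 0.50), which is read from the data, not the labels. Such deviations cancel over the 3 arrays of a group, so these correlations depend on each other and do not show 3 separate pairs. Alternatives covered scaling, background, filter, probe choice, slide, array weights and left-out arrays.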

Additional observations from a re-analysis of the deposited data

How the results depend on the processing

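Over the alternatives, 126 counts of members called stayed at 0 and 1 did not. The exception was array weights for I183P against I183M, with 4 genes called (Angptl4 at 1.91 with adjusted p = 0.00838, Cpt1a at 0.41 with 0.0247, Pdk4 at 1.43 with 0.0256 and Plin5 at 0.45 with 0.0424, limma) among 1902 features (6.38%). The weights were estimated with a warning that their iteration stopped before convergence. Among single genes 3 values changed sign: Lipe in delta minus control was 0.13 with the row of 4 arrays on the slide as a block, and Pdk4 in delta minus I183M was 0.052 with array weights and 0.33 with that row as a block. Blocking on the row, and testing each Ucp3 probe on its own, were added after the data were seen.

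Medians over the 40 genes moved as follows. Scaling each array to its median gave 0.73, 1.29 and 0.85 for I183M, I183P and delta minus control, 0.50 for I183P minus I183M, 0.14 for delta minus I183M and -0.43 for delta minus I183P, where the medians of all features became 0.34, 0.76, 0.43, 0.46, 0.13 and -0.26. Slide as a block gave 0.036 for I183P minus I183M (0.036 within slide 1 as well), 0.16 for delta minus I183M and 0.13 for delta minus I183P (0.13 within slide 2). The row of 4 gave 0.045, 0.15 and 0.13. Leaving out each array in turn gave I183P minus I183M medians from -0.10 to 0.036. With control replicate 1 left out the medians against control came to 0.01, 0.02 and 0.00, without control replicate 2 to 0.72, 0.71 and 0.71 and without control replicate 3 to 0.77, 0.74 and 0.76. On the forward strand alone 1 promoter window, not 2, held the Nkx2-5 letters. The cause of these changes was not tested.

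Counts of all features called ranged over the alternatives from 0 to 20 for I183M against control, 0 to 119 for I183P and 0 to 76 for delta (22 with all arrays), and between mutants from 0 to 1902, 0 to 382 and 0 to 33. Correlations between same-numbered arrays were above 0.1 in all 3 replicates for control and I183M alone, where the 3 values depend on each other. In the other pairs of groups at least 1 correlation was below 0.1, and in all 6 of the 18 were above it. With the replicate block 0 members were called in each of the 6 comparisons, the medians were 0.50, 0.50, 0.47, -0.05, -0.01 and -0.02, and 0, 1, 7, 0, 0 and 0 features were called, so the block changed no call of a member. Angptl4 in I183P minus control ranged from 0.99 to 2.52 and its adjusted p from 0.261 to 1.00. Since each group lay on 1 slide except I183P, slide and delta cannot be told apart except through I183P. Dim second probes of several genes disagreed with the brightest one.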
